A study of Rattus norvegicus with 9 samples.

Results

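The 5 genes described here encode core parts of the circadian clock: Arntl (ENSRNOG00000014448, also called Bmal1), Clock (ENSRNOG00000002175), Per2 (ENSRNOG00000020254), Dbp (ENSRNOG00000021027) and Nr1d1 (ENSRNOG00000009329). They were taken from the deposited count files by these rat Ensembl identifiers, 5 of 32545 identifiers in all. The symbols came with the list of members. No source used here pairs symbols with Ensembl identifiers, so the symbols could not be checked against a table. All 5 had a mean above 1 CPM (a gene's reads scaled to the reads assigned to genes), and all 5 were among the 14463 genes that passed the filter on low counts. Messenger RNA had been sequenced from dorsal hippocampi of 8-week-old males of the outbred Sprague-Dawley stock. Control rearing was given to 4 rats and early-life adversity (ELA) to 5, and none had been tested for behaviour. The labels name no drug, transgene or mutant allele, and they do not say what the adversity consisted of. Each rat gave 1 library. The labels give neither litter nor time of day at collection. Reads assigned to genes numbered 11049282 to 17089188 per library and made up 61.92 to 65.74% of the records in a file.

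The circadian clock is a feedback loop of transcription that runs in most cells. The proteins CLOCK and ARNTL bind DNA as a pair at E-boxes and switch on the genes for their own repressors, PER and CRY, together with Nr1d1 and Dbp. NR1D1 (REV-ERB alpha) in turn represses Arntl through RORE elements, and DBP activates genes such as those of the PER family through D-boxes. In rhythmic tissues, the hippocampus among them, Arntl messenger RNA therefore peaks at about the opposite time of day to Dbp and Nr1d1. Clock itself has a weak rhythm or none in most tissues.

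Promoter stretches that hold the letters of these elements are shown for the 3 genes that had a match, because the libraries are later compared by the opposed arms. RefSeq promoters of the GRCr8 rat assembly (250 bases before to 50 after an annotated start) were available for 5 of the 5 genes, 7 promoters in all. Both strands were searched for the E-box CACGTG, its variant CACGTT, the D-boxes TTATGTAA and TTACGTAA, the RORE and its core AGGTCA, which every RORE contains. Matches are in capitals, and the sequences run 5′ to 3′ on the strand of the gene.

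Arntl, RORE, GRCr8 chr1:176766299-176766327, plus strand: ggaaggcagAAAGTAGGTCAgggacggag

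Per2, D-box, GRCr8 chr9:99497070-99497243, minus strand: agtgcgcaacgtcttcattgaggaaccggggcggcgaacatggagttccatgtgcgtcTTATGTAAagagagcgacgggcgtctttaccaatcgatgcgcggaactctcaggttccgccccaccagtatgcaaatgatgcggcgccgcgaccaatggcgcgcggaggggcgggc

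Per2, E-box variant, GRCr8 chr9:99497041-99497064, minus strand: gcgcgcggtCACGTTttccactat

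Nr1d1, E-box variant read on the other strand, GRCr8 chr10:84231813-84232062, minus strand: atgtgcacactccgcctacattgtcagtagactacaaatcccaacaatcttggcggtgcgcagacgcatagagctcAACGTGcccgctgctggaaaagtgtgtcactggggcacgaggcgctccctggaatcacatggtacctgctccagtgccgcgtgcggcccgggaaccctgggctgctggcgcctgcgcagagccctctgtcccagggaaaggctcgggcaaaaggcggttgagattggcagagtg

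Nr1d1, E-box at an internal start, GRCr8 chr10:84229631-84229654, minus strand: cagctcccaCACGTGtctggggat

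The Arntl promoter held the RORE 20 bases before the start used here, a motif found in 0.356% of the 33469 promoters in the table. Only the first 144 of the 250 bases before that start lie outside the annotated gene, so the RORE lies within it. The Per2 promoter held the D-box TTATGTAA 192 bases before the start used here and CACGTT at 62 bases, motifs found in 0.893% and 4.83% of promoters. The first 174 of its 250 bases lie outside the annotated gene, with the D-box among them and CACGTT not. Nr1d1 held CACGTT 174 bases before its outer start and CACGTG 191 bases before an internal one (6.42% of promoters hold CACGTG). The 1 Dbp promoter and the 2 Clock promoters in the table held none of these letters. A match is a description of the letters, and its absence says only that they are not in these 300 bases.

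The rearing groups were compared first, gene by gene, to ask whether any clock transcript differed between ELA and control rats in adulthood. None of the 5 passed the test (edgeR quasi-likelihood test, Benjamini-Hochberg adjustment over all 14463 genes), and the values of the groups overlapped for each. Over all genes, 0.0415% were called at an adjusted p under 0.05, and 3.04% had groups that did not overlap. An unadjusted edgeR p under 0.05 was found for 1 of the 5, Arntl, and for 9.4% of all genes. DESeq2 and limma-voom with sample weights also called 0 of the 5, where they called 0.98% and 1.2% of all genes they tested. Each of these tools had 1 of the 5 at an unadjusted p under 0.05, Arntl with DESeq2 (adjusted p = 0.53) and Nr1d1 with limma-voom (adjusted p = 0.199). The point estimates were lower in ELA rats for 4 genes and higher for 1, with a median log2 fold change of -0.07, against a median of 0.00354 over all genes tested. In size, the median was 0.109 for the 5 genes and 0.0802 for all genes.

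**Figure D1:**
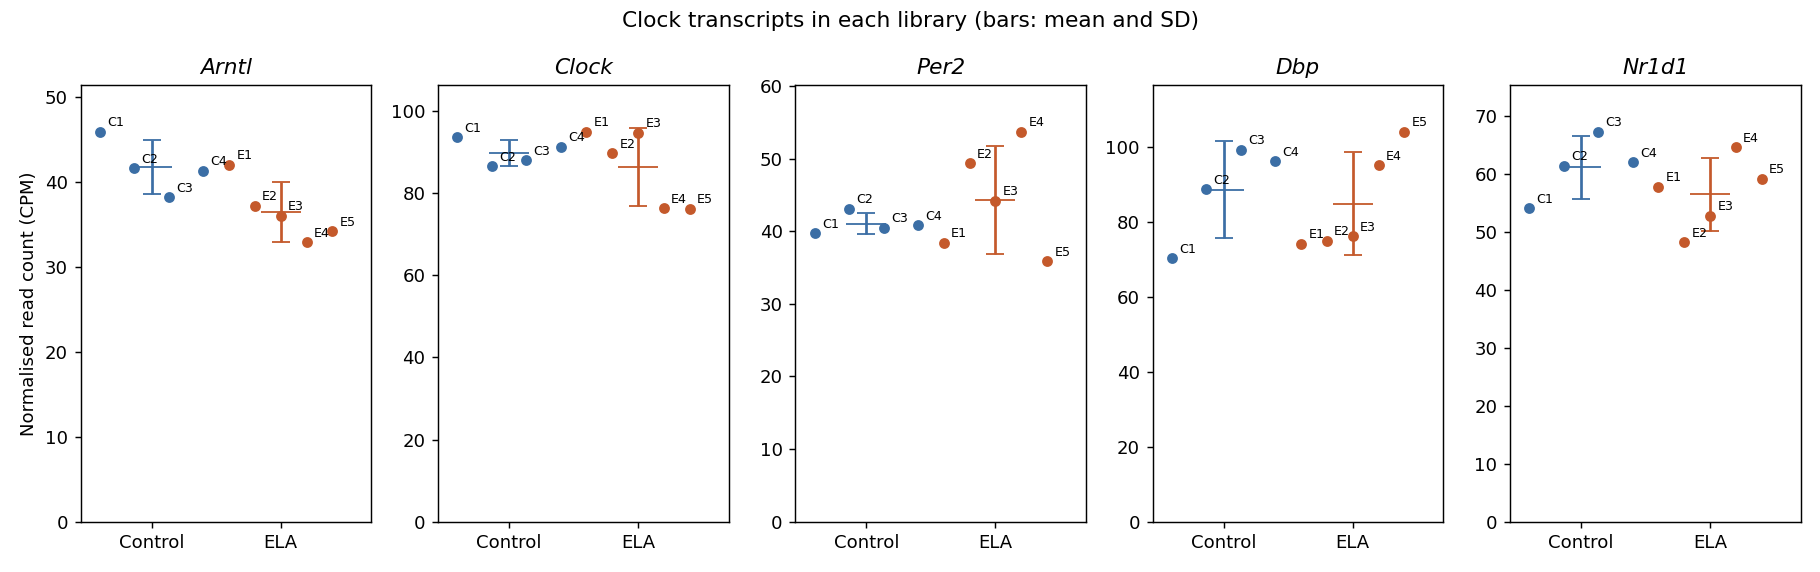
Normalised read count (CPM, vertical axis, from 0) of the 5 clock genes in each library, by rearing group; C1 to C4 are control and E1 to E5 ELA replicates, and bars give the group mean and SD. Control and ELA points overlap for every gene, and Dbp runs from 70.3 to 104 CPM.

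Among the activators, Arntl, which forms the DNA-binding pair with CLOCK, had the smallest p-value. It was at 45.9, 41.6, 38.2 and 41.3 CPM in control replicates 1 to 4, and at 42.0, 37.2, 36.0, 32.9 and 34.2 CPM in ELA replicates 1 to 5. Control replicate 1 was the highest library, and 4 of the 5 ELA libraries lay below every control, while ELA replicate 1 lay above all controls but the first. The means were 41.8 ± 3.17 CPM (SD, n = 4) and 36.5 ± 3.53 CPM (SD, n = 5). The log2 fold change was -0.19 with a standard error of 0.08 and a 95% interval of -0.36 to -0.02, which is per gene and unadjusted. The edgeR p-value was 0.032 before and 0.471 after adjustment, and an exact two-sided permutation test of the group means gave p = 0.0556. In edgeR's ranking of all tested genes by p-value, Arntl stood at place 982. Its unadjusted p depended on single rats: it ran from 0.0053 to 0.112 over the 9 edgeR fits with 1 library left out, and was above 0.05 in 6 of them (without control replicate 1, 2 or 4 or ELA replicate 3, 4 or 5), so that the interval then held 0. It was 0.11 with limma-voom, and 0.00379 in an edgeR fit with the number in the sample descriptions as a replicate block (adjusted p = 0.159).

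Clock, the partner of ARNTL, was nearly level in the control rats. It stood at 93.6, 86.6, 88.1 and 91.3 CPM in control replicates 1 to 4. In ELA replicates 1 to 5 it was at 95.0, 89.7, 94.8, 76.4 and 76.2 CPM. ELA replicates 4 and 5 therefore stood 10.2 CPM below the next library, whereas the other 3 ELA libraries lay within or above the control range. The group means of 89.9 ± 3.15 and 86.4 ± 9.47 CPM (SD, n = 4 and 5) gave a log2 fold change of -0.05 (95% interval -0.22 to 0.11, edgeR adjusted p = 0.898).

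Per2 encodes a repressor of CLOCK and ARNTL and was the member with the higher mean in ELA rats. Control replicates 1 to 4 had 39.7, 43.1, 40.5 and 40.8 CPM, and ELA replicates 1 to 5 had 38.4, 49.4, 44.2, 53.7 and 35.9 CPM. The ELA libraries held both the lowest and the highest values and enclosed all 4 controls. The log2 fold change was 0.11 (95% interval -0.12 to 0.34, edgeR adjusted p = 0.831). The spread differed more than the mean did. The SD of log2 CPM was 0.0503 in control and 0.241 in ELA rats. The mean absolute deviation from the group median was 0.0321 and 0.188 on the log2 scale, a difference of 0.156 that missed the threshold (exact permutation test, two-sided, p = 0.0556, unadjusted, chosen after these values had been seen). The same test over the other 4 genes gave exact permutation p-values of 0.214 (Clock) to 0.952 (Dbp).

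The outputs of the activators, Dbp and Nr1d1, were lowest in the same rats, which came from both rearing groups. Dbp, a transcription factor that carries the rhythm to D-box genes, was at 70.3, 88.6, 99.2 and 96.1 CPM in control replicates 1 to 4. In ELA replicates 1 to 5 it was at 74.1, 74.9, 76.1, 95.1 and 104 CPM. The 4 lowest libraries were control replicate 1 and ELA replicates 1 to 3, up to 76.1 CPM, and a gap of 12.5 CPM separated them from the other 5. Each side of this gap held rats of both groups. The group means were 88.6 ± 13.0 and 84.8 ± 13.8 CPM (SD, n = 4 and 5), with a log2 fold change of -0.07 (95% interval -0.34 to 0.21, edgeR adjusted p = 0.934). The interval reaches a 1.16-fold higher level in ELA rats and 0.788 of the control level, so larger mean differences lie outside it.

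Nr1d1, the repressor of Arntl, was at 54.1, 61.4, 67.3 and 62.0 CPM in control replicates 1 to 4 and at 57.8, 48.2, 52.8, 64.6 and 59.2 CPM in ELA replicates 1 to 5. The 4 libraries lowest in Nr1d1 were the same 4 as for Dbp, although here no gap set them off. The means were 61.2 ± 5.44 and 56.5 ± 6.26 CPM (SD, n = 4 and 5), the log2 fold change was -0.12 (95% interval -0.3 to 0.07), and the edgeR adjusted p was 0.749. In the GRCr8 gene table Nr1d1 shares 1061 bases with Thra, a thyroid hormone receptor gene. Per the labels, the library kit was TruSeq v2, which does not mark strand, so reads from that stretch cannot be told apart by strand. The files set apart reads that fit several genes (1.571 to 1.796% of records per library) and give them to no gene. The counts were made on the build rn6, on which the overlap was not looked up. Clock and Per2 overlap non-coding genes in the GRCr8 gene table.

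**Figure D2:**
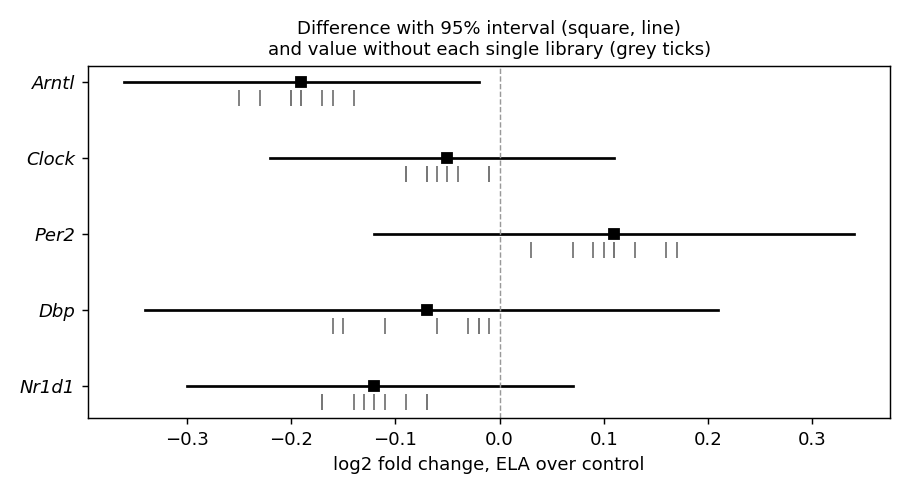
Log2 fold change of each clock gene, ELA over control (horizontal axis), as a square with its 95% interval from edgeR; grey ticks give the value in each of the 9 fits with 1 library left out. The interval crosses 0 for every gene but Arntl (-0.36 to -0.02), and no tick crosses 0.

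Over both groups pooled, each clock gene varied more between rats of one group than most genes of like abundance, but for Clock and Per2 this came from the ELA rats. Dbp varied the most, with a pooled SD of 0.226 log2 CPM within groups, above 95.8% of the 500 tested genes nearest to it in mean level. Per2 (SD 0.185) was above 85.0% of its 500 neighbours, Nr1d1 (0.149) above 76.8%, Clock (0.126) above 75.0% and Arntl (0.125) above 62.6%. Among control rats alone, Per2 (SD 0.0503) was above 16.2% and Clock (SD 0.0504) above 26.0% of the same neighbours, whereas among ELA rats alone (SD 0.241 and 0.161) they were above 90.4% and 84.0%. Dbp was above 97.2% in control and 93.8% in ELA rats. Over all 14463 tested genes, which include many of low count, the median SD was 0.147, and Arntl and Clock lay below it. Reads per library were 370 to 724 for Arntl, 860 to 1636 for Clock, 432 to 703 for Per2, 898 to 1419 for Dbp and 686 to 995 for Nr1d1. Counting alone gives a coefficient of variation of 2.7 to 3.3% for Dbp at these reads and of 3.7 to 5.2% for Arntl. The highest library exceeded the lowest 1.48-fold for Dbp, 1.49-fold for Per2, 1.4-fold for Arntl and Nr1d1 and 1.25-fold for Clock.

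**Figure D3:**
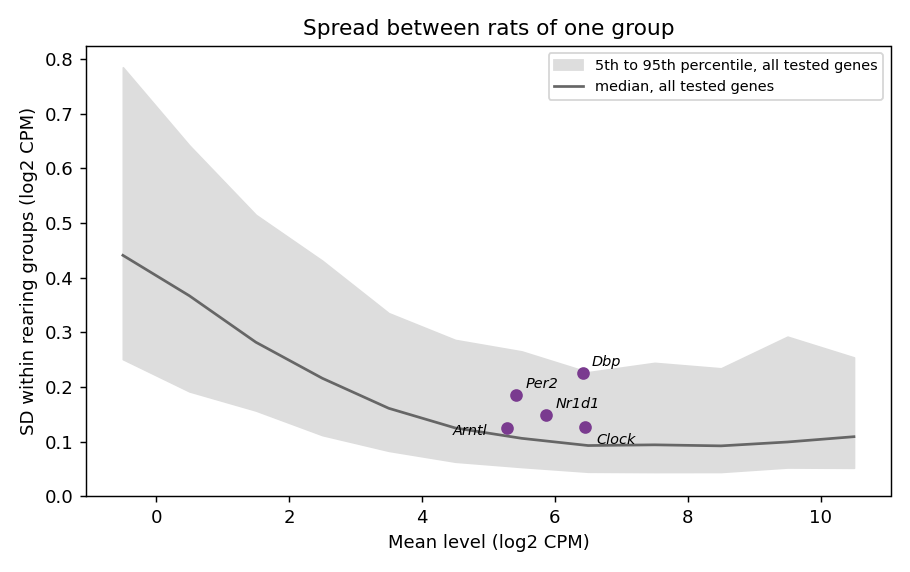
SD of log2 CPM within rearing groups (vertical axis) against mean log2 CPM (horizontal axis) for the 5 clock genes (points), with the median (line) and the 5th to 95th percentile (band) of all tested genes in steps of mean level. Dbp, at an SD of 0.226, lies close to the top of the band, and the other 4 genes lie at or above the line.

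Rats collected at different times of day would be expected, from the known wiring of the clock, to show Arntl moving against Dbp and Nr1d1, and Dbp moving with Nr1d1. Collection times are not in the labels, so an order in time could not be tested directly, and the relation between the arms over the 9 libraries was tested in its place. Over the 10 pairs of members, 3 had an unadjusted exact permutation p under 0.05 for Pearson's r, and 0 passed after Benjamini-Hochberg adjustment over the 10.

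Of the opposed arms, Arntl and Dbp were only loosely related over both groups pooled. Within rearing groups their r was larger in size, though not past the adjusted threshold. Arntl and Dbp gave r = -0.504 (exact permutation p = 0.164, adjusted 0.411) and rho = -0.583 (exact permutation p = 0.108, adjusted 0.27). Without control replicate 1 and ELA replicate 4, the 2 libraries farthest from the median of Arntl, r was -0.198. With each value centred on the mean of its rearing group, which removes the lower Arntl level of the ELA rats, r was -0.826 (exact permutation within groups, p = 0.0125, adjusted over the 10 pairs 0.0799). The lowest-Dbp library, control replicate 1, was the highest in Arntl, and ELA replicates 4 and 5, the lowest in Arntl, were among the 4 highest in Dbp. ELA replicates 2 and 3 broke the pattern, with low values of both genes.

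Arntl and Nr1d1, the gene and its direct repressor, had no relation past the threshold over these libraries, with r = -0.125 (exact permutation p = 0.747, adjusted 0.776) and rho = -0.15 (exact permutation p = 0.708, adjusted 0.9). The sign did not hold in every subset, since r was 0.339 without the same 2 libraries but -0.322 without control replicate 3 and ELA replicate 2, the 2 farthest in Nr1d1. Centred on group means r was -0.581 (exact permutation within groups, p = 0.139, adjusted 0.231). Dbp and Nr1d1, both outputs of the E-box arm, gave r = 0.771 (exact permutation p = 0.0173, adjusted 0.095) and rho = 0.683 (exact permutation p = 0.0503, adjusted 0.252). Here r was 0.843 without control replicate 1 and ELA replicate 1, the 2 farthest in Dbp, and 0.729 to 0.856 with any 1 library left out. Centred on group means r was 0.784 (exact permutation within groups, p = 0.0319, adjusted 0.0799). The relation missed the adjusted threshold.

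**Figure D4:**
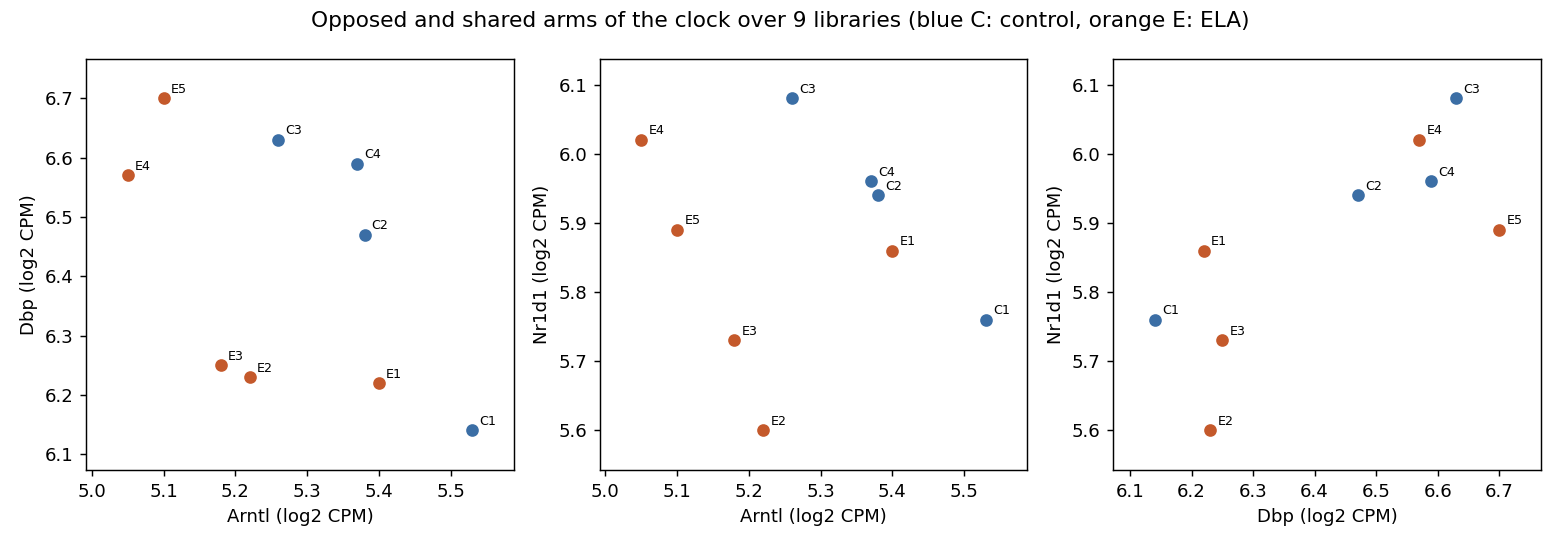
Log2 CPM of Arntl against Dbp (left), Arntl against Nr1d1 (middle) and Dbp against Nr1d1 (right), 1 point per library; blue C1 to C4 are control and orange E1 to E5 ELA replicates. The points slope upwards for Dbp with Nr1d1 (r = 0.771), loosely downwards for Arntl with Dbp (r = -0.504) and show no clear trend for Arntl with Nr1d1 (r = -0.125).

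Clock had the signs of the Arntl arm with the 3 other genes just described, and Per2 was weakly related to the outputs. No relation of Clock or Per2 to another member had an adjusted p under 0.05. Clock and Dbp, from opposite arms, gave r = -0.728 (exact permutation p = 0.0211, adjusted 0.095) and rho = -0.717 (exact permutation p = 0.0369, adjusted 0.252). This r was -0.66 without ELA replicates 4 and 5, the libraries lowest in Clock. With Nr1d1, Clock gave r = -0.438 (exact permutation p = 0.236, adjusted 0.415), rho = -0.5 (exact permutation p = 0.178, adjusted 0.355) and r = -0.431 without those 2 libraries. Clock and its partner Arntl gave a positive r (r = 0.717, exact permutation p = 0.0285, adjusted 0.095; rho = 0.583, exact permutation p = 0.108, adjusted 0.27). Without ELA replicates 4 and 5 that r was 0.129, so the relation of Clock to Arntl rests on those 2 rats. Centred on group means, Clock had r = -0.811 with Dbp and 0.747 with Arntl (exact permutation within groups, p = 0.0163 and 0.026, adjusted 0.0799 for both). With Nr1d1 it was -0.624 (exact permutation within groups, p = 0.134, adjusted 0.231). For Per2 each centred r was smaller in size than the pooled one, from -0.344 with Arntl to -0.0154 with Nr1d1. Per2 had r = -0.106 with Dbp and -0.126 with Nr1d1 (exact permutation p = 0.776 and 0.747, adjusted 0.776 for both). Its rho was -0.1 with Dbp and -0.0333 with Nr1d1 (exact permutation p = 0.81 and 0.948), and without ELA replicates 2 and 4, the 2 farthest in Per2, r was -0.282 and -0.116. With Arntl, Per2 gave r = -0.431 (exact permutation p = 0.249, adjusted 0.415) and rho = -0.433 (exact permutation p = 0.25, adjusted 0.417), and r was 0.0418 without control replicate 1 and ELA replicate 4. That relation hung on single rats, with r = -0.826 without ELA replicate 5 (exact permutation p = 0.0088, unadjusted) and a weakest value of -0.0779 with 1 library left out. Per2 and Clock gave r = -0.195 (exact permutation p = 0.635, adjusted 0.776), rho = -0.117 (exact permutation p = 0.776, adjusted 0.9) and r = -0.321 without ELA replicates 4 and 5.

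Pairs across and within the arms were also placed among all genes, as a description with no test; the values share the same 9 libraries. In the ranking of 14462 other genes by r with Nr1d1, Dbp stood at place 598 from the top, so 4.13% of genes followed Nr1d1 more closely. From the side of Dbp, Nr1d1 stood at place 775, with 5.35% of genes above it. Arntl was unremarkable in the ranking by Nr1d1, with 41.3% of genes more strongly opposed. In the ranking by Dbp, 21.8% of genes were more strongly opposed than Arntl and 9.5% more than Clock, and in the ranking by Arntl 10.9% were more strongly opposed than Dbp. The genes most like Nr1d1 were ENSRNOG00000008146 (r = 0.979) and ENSRNOG00000019604 (r = 0.954), and those most opposed were ENSRNOG00000061582 (r = -0.985) and ENSRNOG00000008177 (r = -0.969). With Dbp these genes had r = 0.688, 0.862, -0.731 and -0.641, in the same order. They were picked by r with Nr1d1, which had r = 0.771 with Dbp, so these values are not a separate result.

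The ratio of Dbp to Arntl and the ratio of Nr1d1 to Arntl were set side by side to order the libraries by the balance of these transcripts; both contain Arntl, so they are not independent, and since CPM is not scaled to transcript length only the order of the libraries can be read from them. The Dbp to Arntl ratio of CPM ran from 1.53 in control replicate 1 through 1.76, 2.01 and 2.11 in ELA replicates 1 to 3 to 2.88 and 3.04 in ELA replicates 4 and 5. Control replicates 2, 3 and 4 lay between these, at 2.13, 2.59 and 2.32. The Nr1d1 to Arntl ratio was lowest in control replicate 1 (1.18) and ELA replicate 2 (1.3) and highest in ELA replicate 4 (1.96), control replicate 3 (1.76) and ELA replicate 5 (1.73). Both ratios thus put control replicate 1 at one end and an ELA library, replicate 4 or 5, at the other, with rats of both groups in between. Whether this order follows the time of collection was not tested.

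Measures of the libraries themselves moved with some of the clock genes. Each of the 5 genes was correlated with depth, the share of reads assigned to genes and the first principal component (PC1) of the 500 most variable genes. Of these 15 relations, 3 passed an exact permutation test of r after adjustment. The same relations were not computed for the other tested genes, so the share of all genes that would pass is not known. Clock followed the share of reads assigned to genes, with r = 0.902 (exact permutation p = 0.00139, adjusted 0.0208) and rho = 0.8 (exact permutation p = 0.0138, adjusted 0.0691). ELA replicates 4 and 5, low in Clock, had the lowest shares (61.92 and 62.03%, against 63.31 to 65.74% in the other libraries). The r was 0.982 without control replicate 4 and ELA replicate 4, the 2 farthest in that share, and 0.668 without ELA replicates 4 and 5. Clock also followed depth, with r = 0.772 (exact permutation p = 0.00925, adjusted 0.0462) and rho = 0.8 (exact permutation p = 0.0138, adjusted 0.0691). That r was 0.65 without ELA replicates 1 and 4, the 2 farthest in depth (exact permutation p = 0.0917, unadjusted). It was 0.482 without ELA replicates 4 and 5, which were lowest both in Clock and in depth. For Arntl, r with the assigned share was 0.712 (exact permutation p = 0.0339, adjusted 0.102; rho = 0.617, exact permutation p = 0.0857, adjusted 0.257), and it was 0.594 without control replicate 4 and ELA replicate 4. Dbp had r = -0.483 with the assigned share (exact permutation p = 0.19, adjusted 0.444; rho = -0.383, exact permutation p = 0.312, adjusted 0.521), and -0.832 without the same 2 libraries (exact permutation p = 0.0198, unadjusted). The part of these measures in the relations between the members was not tested. This holds for Clock with Dbp and with Arntl, and also for Arntl with Dbp and Dbp with Nr1d1.

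Nr1d1 followed PC1, the main axis of variation between the libraries, which is built here from genes that include 0 of the 5 members. The r was 0.86 (exact permutation p = 0.00319, adjusted 0.0239) and rho was 0.9 (exact permutation p = 0.00203, adjusted 0.0304). Without control replicate 4 and ELA replicate 3, the 2 farthest along PC1, r was 0.916. Dbp had r = 0.745 with PC1 (exact permutation p = 0.0297, adjusted 0.102), rho = 0.65 (exact permutation p = 0.0666, adjusted 0.25) and r = 0.721 without those 2 libraries. Control replicate 1 and ELA replicates 1 to 3 were the 4 lowest libraries in Dbp, in Nr1d1 and on PC1 alike. PC1 was not free of the rearing groups. Control replicates 2, 3 and 4 had the highest scores (7.623, 9.253 and 12.84), ELA replicate 4 was at 3.639, and the remaining ELA libraries and control replicate 1 had negative scores. The relations to PC1 were not computed with values centred on group means. Arntl did not follow the axis, with r = 0.0997 (exact permutation p = 0.795, adjusted 0.795; rho = 0.0667, exact permutation p = 0.88, adjusted 0.943). The sequencing of whole tissue cannot tell a change in cell composition from a change in transcript level per cell.

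**Figure D5:**
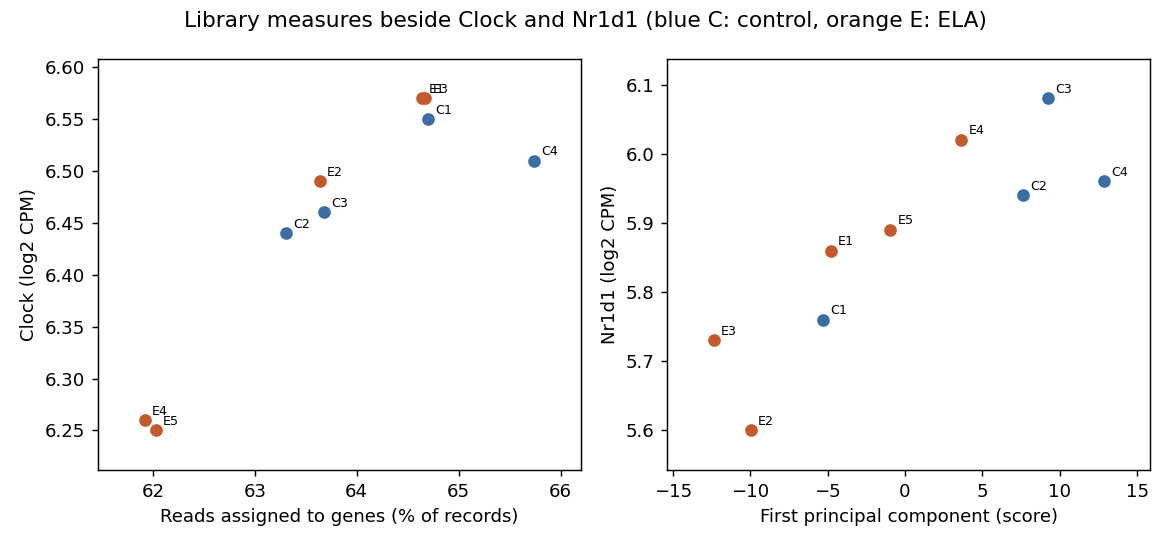
Left, Clock (log2 CPM) against the percentage of records assigned to genes; right, Nr1d1 (log2 CPM) against the score on the first principal component; 1 point per library, blue C control and orange E ELA. ELA replicates 4 and 5 are lowest on both axes of the left panel (r = 0.902 over 9 libraries), and the points of the right panel rise from left to right (r = 0.86).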

How the data were processed

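Poly(A)-selected RNA of 9 rats was sequenced. For each rat the authors deposited a table of whole-number, unnormalised counts per gene. The submitters' processing notes name the aligner STAR 2.5.0, the counter HTSeq 0.6.1 and the build rn6; annotation release and strand setting: not given in the sources used here. The 5 summary entries that name no gene were left out of library sizes and tests.

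Counts were tested in R 4.3.3 with edgeR 4.0.16 (filterByExpr, TMM scaling, robust quasi-likelihood test of 4 control against 5 ELA libraries, no covariate, Benjamini-Hochberg adjustment, threshold 0.05). CPM values use TMM-scaled library sizes, and log2 CPM a prior count of 2. The standard error is the absolute log2 fold change over the square root of F. Correlations and single values used exact permutation tests, whose smallest two-sided p between groups is 0.00794. The edgeR and correlation steps were tested on simulated data. Alternatives used DESeq2 1.42.0, limma 3.58.1, other scaling and filters, number blocks and each library left out.

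The members, lists and tests were chosen with earlier results of these data known. Named are the 5 members and, by r with Nr1d1, the 2 identifiers most like and the 2 most opposed. Lists of other clock genes and of cell type markers, which would have checked the tissue label, were not read, because the gene table used here (47357 genes, GRCr8) holds 0 Ensembl identifiers. Depth sets a lower bound on the error of a single value, the counting error, which is given with the spread for Dbp and Arntl.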

Additional observations from a re-analysis of the deposited data

How the results depend on the processing

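None of the 5 genes was called in any of the 16 alternative fits of the rearing comparison, and each gene's log2 fold change kept its sign in all 16. It ran from -0.25 to -0.12 for Arntl, -0.1 to -0.01 for Clock, 0.03 to 0.17 for Per2, -0.19 to -0.01 for Dbp and -0.19 to -0.07 for Nr1d1, with adjusted p-values of 0.159 to 0.999. Over all genes these fits called 1 to 173 of the 14355 to 21321 genes they tested, against 6 of 14463 in the main fit. The largest share was 1.2%, with limma-voom. At such shares, 0 calls among 5 genes does not set the members apart from other genes. Control and ELA libraries share numbers in titles and in descriptions. Deviations of same-numbered libraries from their group means correlated at -0.129 to 0.241 by title and -0.172 to 0.244 by description. Pairs with different numbers were not correlated as a reference, so these values cannot show whether a number marks a shared batch. With the title number as a replicate block Arntl was at -0.17, and with the description number at -0.25, and no call of a member changed.

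Some of the correlations were less steady. With 1 library left out, r ran from -0.291 to 0.098 for Arntl with Nr1d1, from -0.62 to -0.295 for Arntl with Dbp, from -0.826 to -0.0779 for Arntl with Per2, from -0.752 to 0.397 for Clock with Per2, from -0.416 to 0.188 for Per2 with Dbp and from -0.564 to 0.264 for Per2 with Nr1d1. For the other pairs it ran from 0.729 to 0.856 (Dbp with Nr1d1) and from -0.828 to -0.621 (Clock with Dbp). It ran from 0.575 to 0.876 for Arntl with Clock and from -0.52 to -0.294 for Clock with Nr1d1. Centring on group means took Arntl with Dbp to -0.826 and Arntl with Nr1d1 to -0.581. Scaling by library totals took Arntl with Nr1d1 to -0.00373, Per2 with Nr1d1 to 0.00361 and Clock with Dbp to -0.634. Without the 2 farthest libraries r changed sign for Arntl with depth (-0.132) and PC1 (-0.185), and for Per2 with depth (0.745), assigned share (0.265) and PC1 (0.00532), while Dbp with the assigned share went from -0.483 to -0.832. The cause was not tested.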
